A study of Mus musculus with 6 samples.

Results

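The enzymes that cross-link and hydroxylate collagen were followed in bladder epithelial cells of 7-day-old mice. The genes were Lox, Loxl1, Loxl2, Loxl3 and Loxl4 (lysyl oxidases), Plod1 and Plod2 (lysyl hydroxylases), and P4ha1, P4ha2 and P4ha3 (catalytic alpha subunits of collagen prolyl 4-hydroxylase). Every probe set of the deposited table that is annotated to one of these 10 genes alone was taken, in all 6 arrays. This gave 16 probe sets of 9 genes, of 45037 probe sets in all once controls were left out. The single-gene probe sets of the whole table covered 18193 genes. Loxl2 had no such probe set, because its probe sets are annotated together with a predicted gene. Of the 16 probe sets, 12 passed the filter on low signal and were tested, and these covered 8 genes.

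The arrays compared DsRed-positive with DsRed-negative cells, 3 arrays each, numbered 1, 2 and 5 in both groups. All 6 samples carry the same labels otherwise: bladder epithelial cells, a cross of FVB/N and C57BL/6, male, not pooled, with B6;129P-Upk1btm1Zhang/J given as the reported allele. That allele belongs to Upk1b, which encodes a uroplakin of the urothelial surface. The labels do not say how the cells were separated, nor that the samples of a group came from separate animals. A p-value here therefore reflects the spread between these samples, which may be in part technical. That spread also takes in sex-linked signal, which set the arrays numbered 1 apart from the others, as given below.

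Collagen chains are modified in the endoplasmic reticulum before they leave the cell. Prolyl 4-hydroxylase makes the hydroxyproline that keeps the triple helix stable at body temperature, and lysyl hydroxylases make the hydroxylysine that carries sugars and takes part in cross-links. Outside the cell, lysyl oxidases, which need copper, turn lysine and hydroxylysine side chains of collagen and elastin into the aldehydes that form covalent cross-links. In the bladder wall these enzymes belong mainly to the matrix-producing cells below the urothelium.

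All 8 tested genes of the group had lower signal in DsRed-positive than in DsRed-negative cells, by 2.81 to 8.12 on the log2 scale, and each passed the limma test (adjusted p under 0.05). Lox had the largest fitted difference, and P4ha1 and Plod2 had the smallest (−2.81 and −2.82). By this rule 11.3% of all 14222 tested genes were lower and 9.21% were higher. Among probe sets, 10 of the 12 tested were lower, 0 were higher and 2 did not pass, where 8.62% of all 30175 tested probe sets were lower and 8.63% were higher. In the group, 7 genes and 8 probe sets were lower without both arrays numbered 1. The 3 DsRed-positive arrays lay below the 3 DsRed-negative arrays in 8 of 8 genes, as in 21.4% of all tested genes. Loxl1, Plod1 and Plod2 passed the filter on low signal only through the DsRed-negative arrays, so such counts describe the genes that passed and do not stand for all 10.

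The labels were checked first. The DsRed-positive arrays carried the urothelial signal: all 12 urothelial markers were higher in them, and their summed deposited intensity was 361000 to 550400 against 19880 to 48060 in the DsRed-negative arrays. The smallest p belonged to Upk1a (4.44 ± 0.34), Grhl3 (4.57 ± 0.36), Cdh1 (4.73 ± 0.41) and Krt7 (4.42 ± 0.39). Without both arrays numbered 1, 11 of the 12 were higher, and Upk2 did not pass (adjusted p = 0.0527). Upk1b itself was higher by 4.27 ± 0.48 (SE; adjusted p = 0.00105, limma). The DsRed-negative arrays, although labelled epithelial, carried the signal of fibroblasts, with all 10 markers higher there and a summed intensity of 467500 to 1048000 against 10640 to 20820. Col1a1 and Col3a1 gave most of that sum in both groups, and they are also counted among the collagen chains below. In both groups the array numbered 1 went against the male label: Xist, the transcript of the inactive X chromosome, read 28183 and 45699 there and 203 to 546 in the other 4 arrays. The Y-linked Eif2s3y read 31.2 and 3.83 there, and 3309 to 8043 in the others. Each call or count of a list named here that changed without both arrays numbered 1 is given with its value there.

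The members' promoters were read from RefSeq (build GRCm38.p6), whose promoter table matched 5 of the 10 genes. The promoters of the 4 matched genes with a called change, all of them lower, are shown. Each runs 5′ to 3′ on the gene's strand and ends at the annotated start: Plod1 at chr4:147936777-147937026 (minus strand), P4ha1 at chr10:59323046-59323196 (plus), P4ha2 at chr11:54100674-54100923 (plus) and Loxl4 at chr19:42612807-42613056 (minus). Capitals mark matches on either strand to ACGTG or GCGTG, the core of the hypoxia response element, and to GGGCGG, the GC box.
Plod1: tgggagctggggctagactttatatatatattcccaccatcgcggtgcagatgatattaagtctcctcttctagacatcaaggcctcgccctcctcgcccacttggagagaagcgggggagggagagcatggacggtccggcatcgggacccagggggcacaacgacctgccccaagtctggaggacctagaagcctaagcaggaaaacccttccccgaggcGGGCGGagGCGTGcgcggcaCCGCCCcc
P4ha1: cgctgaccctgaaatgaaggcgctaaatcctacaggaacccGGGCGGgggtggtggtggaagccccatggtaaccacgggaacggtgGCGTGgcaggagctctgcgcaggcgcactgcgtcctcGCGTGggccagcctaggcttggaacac
P4ha2: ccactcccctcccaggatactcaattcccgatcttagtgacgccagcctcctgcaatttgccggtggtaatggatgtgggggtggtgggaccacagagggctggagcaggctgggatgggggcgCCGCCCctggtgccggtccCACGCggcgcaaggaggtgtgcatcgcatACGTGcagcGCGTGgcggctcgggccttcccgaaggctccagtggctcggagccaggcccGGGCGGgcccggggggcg
Loxl4: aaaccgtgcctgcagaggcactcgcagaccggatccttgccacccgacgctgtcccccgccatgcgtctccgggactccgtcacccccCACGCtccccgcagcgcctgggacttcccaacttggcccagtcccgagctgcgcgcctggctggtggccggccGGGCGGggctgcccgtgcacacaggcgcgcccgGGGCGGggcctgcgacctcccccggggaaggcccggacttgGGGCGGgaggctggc

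These stretches were rich in G and C, from 61.6% in Plod1 to 76.0% in Loxl4. GCGTG was found in each of them, 1 match in Plod1 and Loxl4 and 2 in P4ha1 and P4ha2. Of all 32851 promoters, 28.2% held GCGTG within their first 250 bases and 16.6% within their first 151, the length available for P4ha1. The first 151 bases of other promoters need not end at the annotated start, so the shares over 151 bases come from unlike stretches. ACGTG was found in P4ha2 alone among the 4, with 1 match, and in 16.6% of all promoters over 250 bases. GGGCGG was found 2 times in Plod1, 1 time in P4ha1, 2 times in P4ha2 and 3 times in Loxl4, and 32.7% of all promoters held it over 250 bases and 16.8% over 151. In P4ha3, the matched gene without a tested probe set, the 219 bases held 4 matches to GGGCGG, in part overlapping, and 0 to the other motifs. A match describes the letters and does not show that a factor binds.

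Lox encodes the founding lysyl oxidase, which cross-links collagen and elastin. Its brightest probe set read 123.72 in DsRed-positive array 1, 195.94 in array 2 and 102.58 in array 5, where the same-numbered DsRed-negative arrays read 62509.10, 79383.36 and 68094.33. Values below follow this order of arrays. The groups lay far apart, and the positive values were close to the level of unspiked control probe sets, 106 to 113 in those arrays. On the normalized log2 scale the means were 7.74 ± 0.43 and 15.86 ± 0.11 (SD, n = 3 each). The difference was −8.12 ± 0.35 (SE; adjusted p = 7.43e-05, limma), a 279-fold lower signal. Only 7 of the 14222 tested genes had a more negative difference.

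A second Lox probe set gave the same direction, with 5.62, 10.64 and 17.77 in DsRed-positive and 8752.43, 4920.05 and 3125.89 in DsRed-negative arrays. All 3 positive values were below the control level, so the fold is a bound, at least 30.1-fold lower (adjusted p = 0.000126). The third Lox probe set was dim, with 4.91 to 6.86 in the positive and 219.66 to 294.33 in the negative arrays. It did not pass the filter, and its signal was at least 1.39-fold lower. In bulk samples, fewer cells of a type and less RNA per cell cannot be told apart, and this holds for every difference given here.

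**Figure D1:**
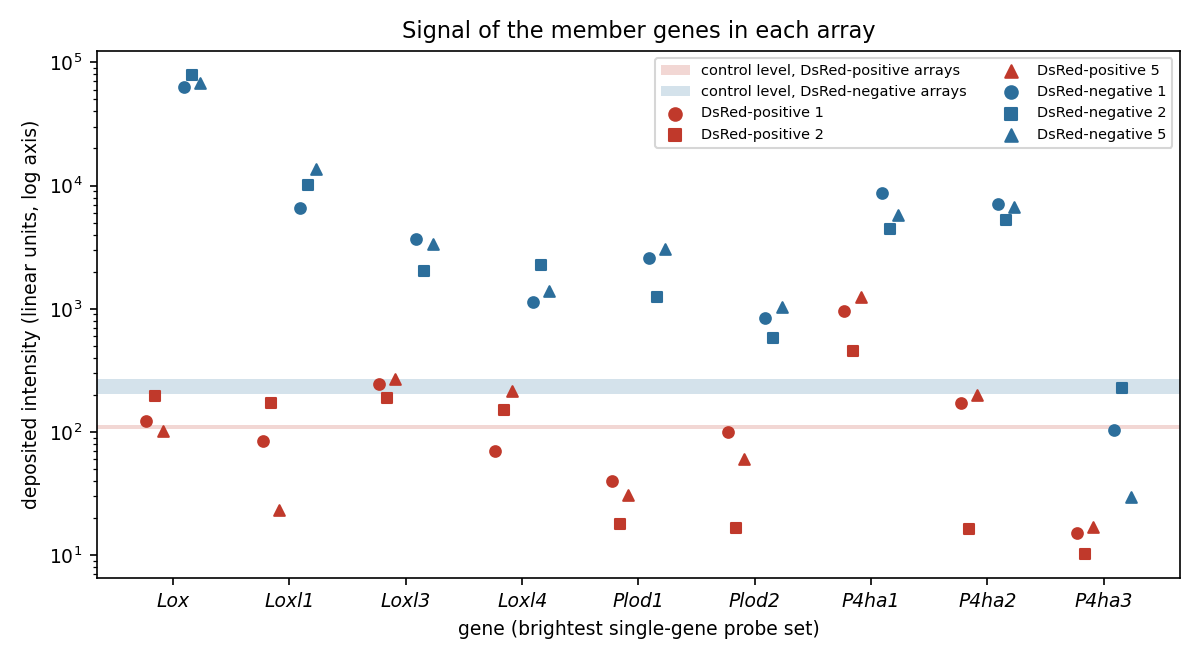
Deposited intensity (linear units on a log axis) of the brightest single-gene probe set of each member gene in each of the 6 arrays, with shaded bands for the range of the control level in each group. DsRed-positive values lie below all DsRed-negative values for each of the 8 tested genes, and only P4ha1 and Loxl3 stay above the positive arrays' control band in all 3 positive arrays.

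Loxl1 encodes the lysyl oxidase known from mouse work for keeping elastic fibres in repair. It read 84.66, 171.26 and 23.20 in DsRed-positive cells, against 6605.86, 10032.78 and 13653.90 in DsRed-negative cells. Positive arrays 1 and 5 were at or below the control level, and the groups did not overlap. The log2 means were 7.13 ± 0.96 and 13.30 ± 0.53 (SD), a difference of −6.17 ± 0.55 (SE; adjusted p = 0.00042), or 71.9-fold. The other Loxl1 probe set did not pass the filter, and apart from 787.88 in DsRed-negative array 5 its values were 7.37 to 39.09.

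Loxl3 encodes a lysyl oxidase with scavenger receptor domains. Its single probe set read 243.52, 187.24 and 271.84 in DsRed-positive and 3655.35, 2021.18 and 3338.54 in DsRed-negative arrays. All 6 values were above the control level, so both ends of this ratio were measured. The log2 means were 8.35 ± 0.18 and 11.56 ± 0.48 (SD), and the difference was −3.22 ± 0.37 (SE; adjusted p = 0.00116), or 9.29-fold.

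Loxl4 encodes another lysyl oxidase with scavenger receptor domains, and its probe sets disagreed. The brighter one read 69.65, 149.82 and 214.75 in DsRed-positive and 1129.04, 2276.55 and 1392.18 in DsRed-negative arrays, with no overlap. Its difference was −2.92 ± 0.44 (SE; adjusted p = 0.004), or 7.58-fold. The dimmer one read 119.11, 105.57 and 169.90 against 212.11, 75.70 and 509.51, and the groups overlapped. Its difference was −0.10 ± 0.57 (adjusted p = 0.926), so the lower call of Loxl4 rests on 1 of its 2 probe sets.

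For Loxl2, a lysyl oxidase that acts on basement membrane collagen, only the probe sets shared with the predicted gene Gm21451 could be read, and these are not counted among the 16. The brighter read 80.46, 164.77 and 85.68 in DsRed-positive and 7276.37, 20194.62 and 26523.97 in DsRed-negative arrays. This was a difference of −6.47 ± 0.53 (SE; adjusted p = 0.00029). The dimmer one read 5.85 to 10.58 in the positive and 721.61 to 2001.45 in the negative arrays, at least 7.53-fold lower (adjusted p = 0.000503). Which of the 2 genes gave this signal cannot be told apart.

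Plod1 encodes the lysyl hydroxylase that acts on lysines of the triple helix. It read 40.26, 18.00 and 30.66 in DsRed-positive and 2598.08, 1237.14 and 3032.54 in DsRed-negative arrays. All 3 positive values were below the control level, and the groups were far apart. The fitted difference was −4.81 ± 0.45 (SE; adjusted p = 0.000482), and the fold against the control level was at least 12.1-fold lower. A second, dimmer Plod1 probe set did not pass the filter, and its groups overlapped, at 6.94 to 142.85 and 35.29 to 325.42.

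Plod2 encodes the lysyl hydroxylase of the telopeptides, the chain ends where stable cross-links start. It read 100.02, 16.66 and 60.53 in DsRed-positive and 837.54, 579.27 and 1030.02 in DsRed-negative arrays. The positive values were again below the control level. The fitted difference was −2.82 ± 0.48 (SE; adjusted p = 0.00696), at least 4.24-fold lower. Its other probe set gave 4.29 to 43.12 against 327.08 to 1612.84, at least 3.41-fold lower (adjusted p = 0.0141). Without both arrays numbered 5 the difference of the brighter probe set was −2.64, and its adjusted p rose to 0.0747.

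P4ha1 encodes the most widely used catalytic subunit of prolyl 4-hydroxylase. It read 961.64, 451.74 and 1241.95 in DsRed-positive and 8773.71, 4467.78 and 5761.25 in DsRed-negative arrays. Both groups were above the control level and did not overlap, so P4ha1 kept a measurable signal in DsRed-positive cells at this brighter probe set. The log2 means were 9.84 ± 0.60 and 12.65 ± 0.46 (SD), and the difference was −2.81 ± 0.44 (SE; adjusted p = 0.00448), or 7.03-fold. A dimmer P4ha1 probe set had a difference of −1.20 ± 0.47 that did not pass (adjusted p = 0.127, limma). Its values were 57.15 to 109.78 in the positive and 258.68 to 669.93 in the negative arrays. All 3 positive values were below the control level, so this signal was at least 1.9-fold lower. Without both arrays numbered 1 the brighter probe set had a difference of −2.61 and did not pass (adjusted p = 0.0661).

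P4ha2 encodes a second catalytic subunit, which is known from cartilage and bone. It read 170.56, 16.23 and 198.87 in DsRed-positive and 7135.51, 5291.52 and 6673.10 in DsRed-negative arrays. The negative arrays were close to each other, while positive array 2 was below the control level and stood apart from the other positive arrays. The log2 means were 7.36 ± 1.21 and 12.70 ± 0.20 (SD), a difference of −5.34 ± 0.60 (SE; adjusted p = 0.00105), or 40.5-fold. Without DsRed-positive array 2 the difference was −4.55, or 23.5-fold (adjusted p = 0.00144).

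P4ha3, the third catalytic subunit, was not tested. Its probe set read 15.15, 10.26 and 16.98 in DsRed-positive and 104.32, 228.00 and 29.82 in DsRed-negative arrays. All 6 values were at or below the control level of their array, so no fold is given.

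**Figure D2:**
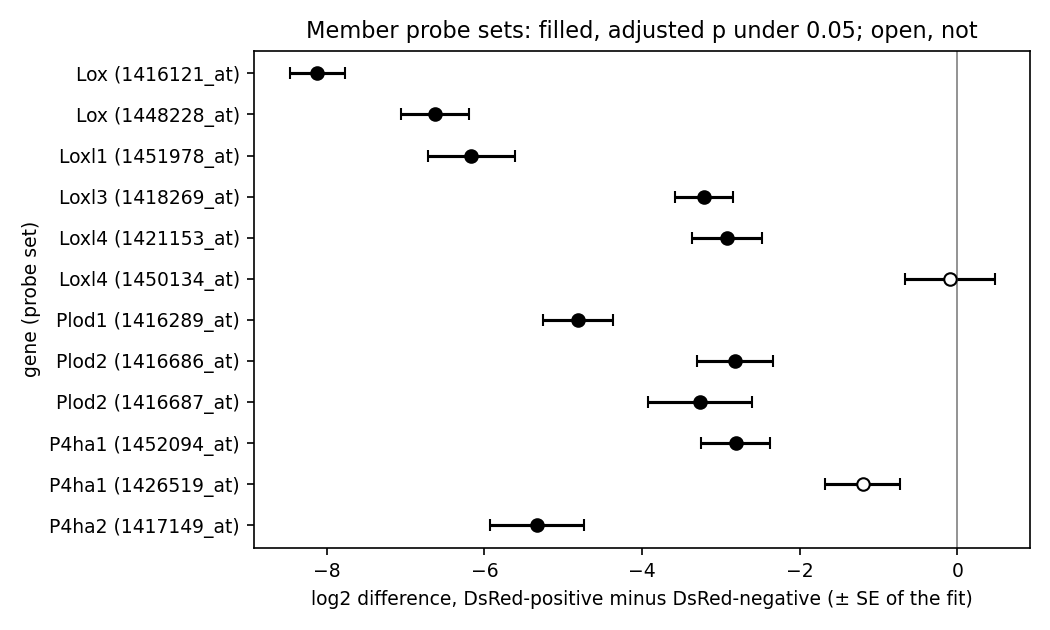
Log2 difference (DsRed-positive minus DsRed-negative, with the SE of the fit) for the 12 tested member probe sets. Filled points passed at an adjusted p under 0.05, and the open points are the dimmer probe sets of Loxl4 (−0.10) and P4ha1 (−1.20).

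The sizes of the differences varied within the lysyl oxidases and the prolyl 4-hydroxylase subunits. Lox, Loxl1 and P4ha2 had differences of −8.12 to −5.34, and Loxl3, Loxl4 and P4ha1 had −3.22 to −2.81. Plod1 and Plod2 are not placed in this order, since all 3 positive arrays were below the control level for both. The mean deposited signal of the positive arrays was 0.201% of that of the negative arrays for Lox, 0.921% for Loxl1 and 2.02% for P4ha2. It was 7.79% for Loxl3, 9.05% for Loxl4 and 14% for P4ha1. Of these genes, Loxl3 and the brighter probe set of P4ha1, which gave its share, were above the control level in all 3 positive arrays. The other shares rest in part on signal at or below it. For the 10 fibroblast markers the share had a median of 1.25% and ran from 0.638% for Pdgfra to 3.94% for Twist2, some of them also in part at the control level.

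**Figure D3:**
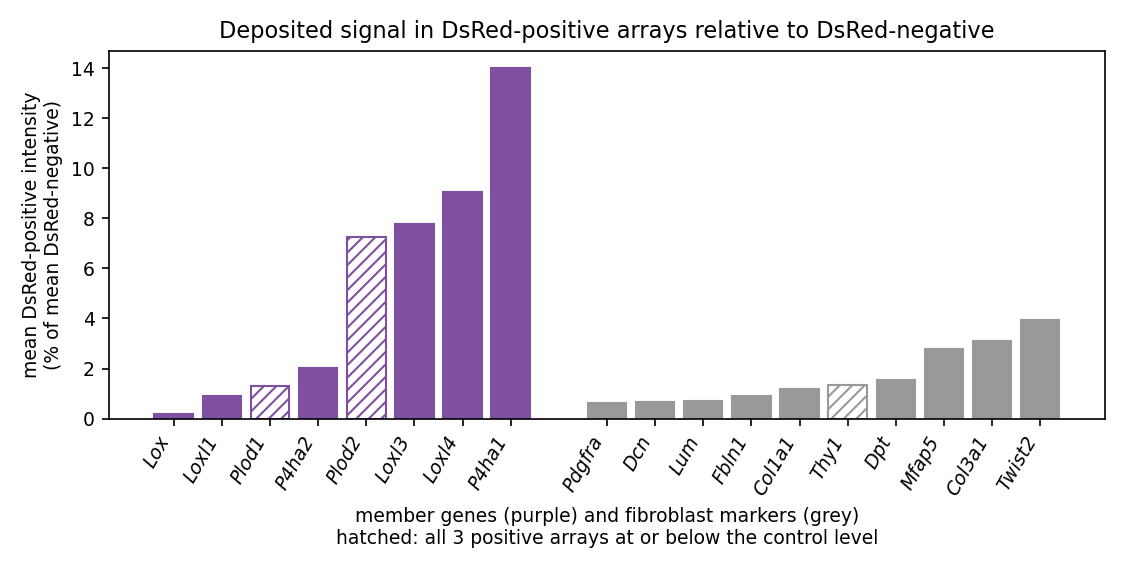
Mean deposited intensity of the DsRed-positive arrays as a percent of the mean of the DsRed-negative arrays, for the 8 tested member genes (purple) and 10 fibroblast markers (grey). Each gene is shown by its brightest probe set. Hatched bars (Plod1, Plod2 and Thy1) are genes at or below the control level in all 3 positive arrays, whose share is not measured; the shares of Loxl3 and P4ha1, above that level in all 3, were 7.79% and 14%.

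Between arrays of the same number the direction was the same for each of the 8 genes. The Lox difference was −8.25 for number 1, −7.72 for number 2 and −8.39 for number 5. For Loxl1 it was −5.48, −5.36 and −7.67, and for P4ha2 −4.77, −6.51 and −4.73. The other 5 genes kept within −5.34 to −2.24.

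The genes with the most similar profile over the 6 arrays were found by the root mean square difference of log2 values after each gene's own mean was subtracted. For Lox they were Sfrp2 (0.17), Tnc (0.25) and Aard (0.29), where Tnc encodes the matrix protein tenascin C. Loxl1 was most like Lum (0.33), which encodes the collagen-binding lumican, then Cpxm1 (0.33) and Ror1 (0.39). Loxl3 was most like Lef1 (0.21), Ifitm3 (0.22) and Irgm2 (0.24). Loxl4 was most like Myh11 (0.23), the myosin of smooth muscle, with 9430083A17Rik (0.23) and Medag (0.23). Plod1 was nearest to Avpr1a (0.28), Sh3bgr (0.28) and Fgl2 (0.29), and Plod2 to Lifr (0.20), Rhoq (0.25) and Tm6sf1 (0.27). P4ha1 was nearest to Cavin2 (0.19), Gbp7 (0.22) and B3glct (0.23), and P4ha2 to Akap2 (0.28), Hpse (0.33) and Sspn (0.34). Within the group, P4ha1 and Loxl3 were closest (0.36) and Lox and Plod2 farthest apart (2.74). These values describe 6 arrays that share 2 groups, so any genes with like differences come out as near.

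The partners of these enzymes inside the cell were split. Of 9 tested genes for other steps of intracellular collagen modification, 4 were lower, 0 were higher and 5 did not pass, with a median log2 difference of −0.98, against 0.04 over all tested genes. The lower genes were Crtap, P3h1, P3h3 and P3h4. Crtap, the helper protein of the prolyl 3-hydroxylase complex, read 660.25, 1299.23 and 547.97 in DsRed-positive and 28302.93, 27027.47 and 29671.32 in DsRed-negative arrays, a difference of −4.96 ± 0.40 (SE; adjusted p = 0.000277). The enzyme P3h1 had −4.00 ± 0.49 (adjusted p = 0.00157) and P3h3 −4.23 ± 0.45 (adjusted p = 0.000869). P3h4, a relative without known catalysis, had −2.12 ± 0.41 (adjusted p = 0.012), which did not pass without DsRed-positive array 1 or 5 (highest adjusted p = 0.0556). Nor did it pass without both arrays numbered 1 (adjusted p = 0.12, limma), which left 3 lower genes in this list.

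P4hb, the beta subunit that joins every P4ha subunit and also works alone as protein disulfide isomerase, was bright in all arrays. It read 45749.46, 68678.37 and 80449.23 in DsRed-positive and 101614.88, 135071.36 and 119392.31 in DsRed-negative arrays. After normalization the groups overlapped, and the difference of −0.23 ± 0.31 did not pass (adjusted p = 0.663). On the values as deposited the groups did not overlap, and the P4hb difference was −0.90, which did not pass either (adjusted p = 0.127, limma). The size of this difference thus depended on the scaling. Plod3, the lysyl hydroxylase that also attaches sugars to hydroxylysine, overlapped between groups, at 993.11, 1184.97 and 988.72 against 2115.47, 1171.03 and 4120.21. Its difference was −0.96 ± 0.51 (adjusted p = 0.244). Ppib, a prolyl isomerase of the same complex as Crtap, had −0.98 ± 0.32 (adjusted p = 0.0739, and 0.0433 on the values as deposited). Colgalt1, a collagen galactosyltransferase, had −0.85 ± 0.40 (adjusted p = 0.19), and P3h2 had 0.31 ± 0.84 (adjusted p = 0.839). Colgalt2 did not pass the filter.

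Of 15 tested genes for collagen chaperones and export, 8 were lower, 0 were higher and 7 did not pass, with a median of −1.59. Without both arrays numbered 1, 6 were lower, and Fkbp9 (adjusted p = 0.0555) and Sec23a (adjusted p = 0.168) did not pass. Sec23a passed in 1 of the 6 fits without a single array. Serpinh1, the collagen chaperone HSP47, read 645.51, 1311.2 and 1437.1 in DsRed-positive and 68378.09, 89577.83 and 101606.27 in DsRed-negative arrays. Its difference was −5.91 ± 0.38 (SE; adjusted p = 0.000117). Kdelr3, a receptor that returns proteins to the endoplasmic reticulum, had −5.63 ± 0.37, and the prolyl isomerases Fkbp7 and Fkbp14 had −4.99 ± 0.35 and −2.97 ± 0.30. The general folding factor Pdia3 had 1.09 ± 0.51 and did not pass (adjusted p = 0.191).

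The substrates and the extracellular processing steps had lower signal as well. Of 19 collagen chains tested, 16 were lower, 0 were higher and 3 did not pass, with a median of −5.05. Those with the smallest p were Col4a2 (−6.05 ± 0.31), Col5a2 (−6.84 ± 0.40), Col6a3 (−6.82 ± 0.41) and Col6a1 (−6.92 ± 0.43). Col17a1, a collagen of the basal epithelial cell membrane, had 2.17 ± 0.72 and did not pass (adjusted p = 0.0827). Without DsRed-negative array 1, 18 chains were tested, of which 1 was higher and 15 were lower. Leaving out 1 array at a time gave 13 to 17 lower, and median centring gave 14. Col5a3 passed in 2 of the 6 fits without a single array. Without both arrays numbered 1, 12 chains were lower. Col5a3, Col4a5, Col4a6 and Col7a1 then no longer passed (adjusted p = 0.118, 0.13, 0.131 and 0.0829, limma).

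All 5 tested genes of procollagen processing were lower, with a median of −6.31. This fell to 4 without DsRed-positive array 1, without DsRed-positive array 2 and without both arrays numbered 1, where Adamts3 did not pass (adjusted p = 0.0724 without the first and 0.164 without both). The list included Bmp1, the protease that removes the C-propeptide and also activates pro-lysyl oxidase, which had −3.34 ± 0.39 (adjusted p = 0.00122). Its enhancer Pcolce had −6.31 ± 0.41 (adjusted p = 0.000117). Postn, which binds Bmp1 and matrix proteins, had −6.57 ± 0.38, and fibronectin (Fn1) had −6.51 ± 0.41. Another 3 genes of this list did not pass the filter.

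All 7 tested elastic fibre genes were also lower, with a median of −5.38. This fell to 6 without DsRed-positive array 1, without DsRed-positive array 5 and without both arrays numbered 1, where Ltbp4 did not pass (adjusted p = 0.0652 without the first and 0.118 without both). Eln, the elastin substrate of the lysyl oxidases, read 259.82, 366.82 and 411.86 in DsRed-positive and 3419.1, 3353.06 and 3472.51 in DsRed-negative arrays. Its difference was −3.02 ± 0.31 (adjusted p = 0.000751). Fbln5, which brings elastin and Loxl1 together, had −6.82 ± 0.51 (adjusted p = 0.000196), Emilin1 had −6.29 ± 0.55 and Mfap5 had −4.85 ± 0.40. Mfap4 was below the control level in all 3 positive arrays and at least 27.7-fold lower (adjusted p = 9.77e-05).

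**Figure D4:**
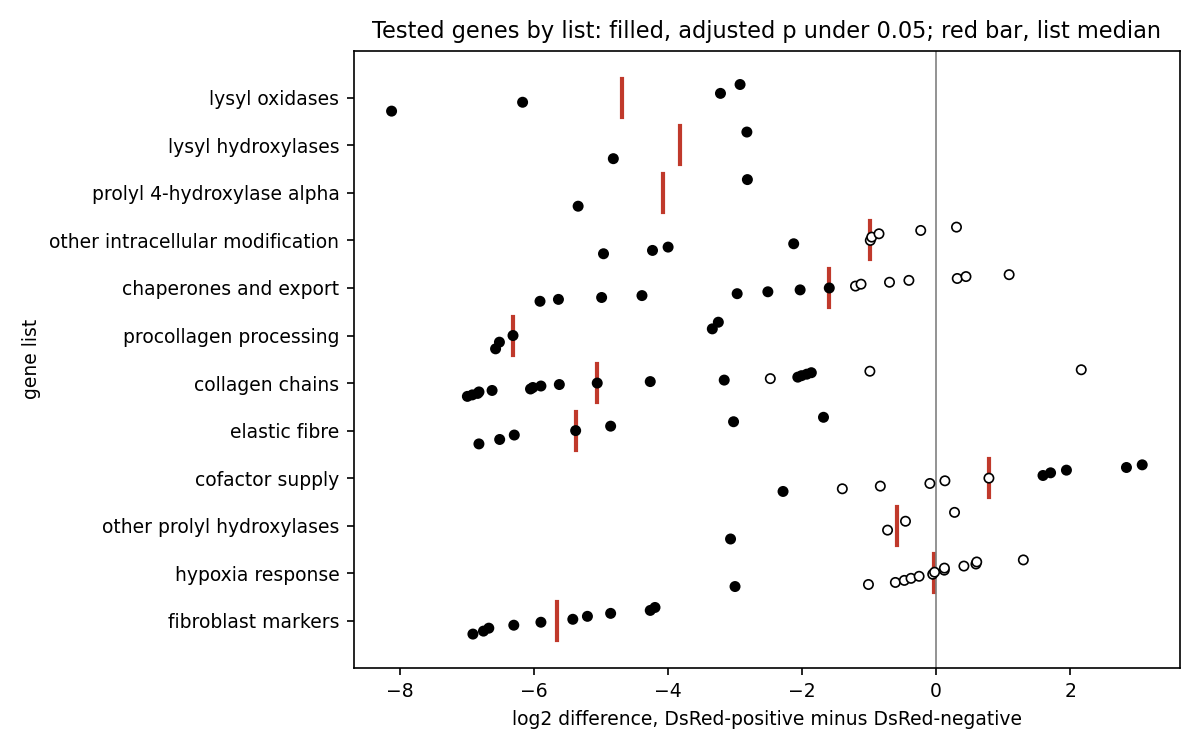
Log2 difference (DsRed-positive minus DsRed-negative) of each tested gene, grouped by list, with filled points for an adjusted p under 0.05 and a red bar for the median of each list. The medians of the member families and the matrix lists lie to the left of 0, although the collagen chain Col17a1 (2.17) lies to the right. The hypoxia list is centred near 0 (median −0.04). The list labelled cofactor supply, which also holds proline genes, lies partly to the right (median 0.79).

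A mixed list of genes that handle ascorbate, copper or proline went both ways. Its proline genes, such as Prodh, do not supply a cofactor of these enzymes. Of 11 tested, 5 were higher, 1 was lower and 5 did not pass, with a median of 0.79. Prodh, the enzyme that breaks down proline, read 1485.38, 2533.85 and 1728.14 in DsRed-positive and 181.47, 120.76 and 483.19 in DsRed-negative arrays, a difference of 3.08 ± 0.52 (adjusted p = 0.0064). Gsto2 had 2.84 ± 0.56 (adjusted p = 0.0123) and Gsto1 1.95 ± 0.38 (adjusted p = 0.0126), and both encode enzymes that can reduce oxidized ascorbate. The ascorbate transporters Slc23a2 and Slc23a1 had 1.60 ± 0.38 (adjusted p = 0.0271) and 1.71 ± 0.48 (adjusted p = 0.0484). Each of these transporters kept its call in 1 of the 6 fits without a single array (highest adjusted p = 0.105 and 0.166), and Slc23a1 did not pass on the values as deposited (adjusted p = 0.0955).

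Atp7a, the pump that loads copper onto secreted enzymes such as lysyl oxidase, read 2975.93, 1694.75 and 3289.22 in DsRed-positive and 16781.64, 13003.09 and 7847.14 in DsRed-negative arrays. Its difference was −2.28 ± 0.42 (adjusted p = 0.00896). The counts of this mixed list depended on single arrays. In it, 2 genes were higher without DsRed-positive array 1 or without DsRed-positive array 2. Another 2 fits, without DsRed-positive array 5 or without DsRed-negative array 2, gave 3 higher. Without both arrays numbered 1, 1 gene was higher (Gsto2) and 0 were lower. Gsto1, Slc23a1 and Slc23a2 did not pass in that fit (adjusted p = 0.113, 0.171 and 0.187, limma). Gsto2 did not pass without DsRed-positive array 1 (adjusted p = 0.0588), nor Gsto1 without DsRed-positive array 2 (adjusted p = 0.0547). Prodh and Atp7a passed without each single array, but not without both arrays numbered 1 (adjusted p = 0.0849 and 0.0969).

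Of 4 tested related hydroxylases that act outside collagen, 1 was lower, 0 were higher and 3 did not pass. P4htm, a transmembrane prolyl 4-hydroxylase, had −3.06 ± 0.58 (adjusted p = 0.0108, 0.0558 without DsRed-positive array 1 and 0.0834 without both arrays numbered 1). Egln1, Egln2 and Egln3, the oxygen-sensing hydroxylases of HIF, had −0.46, −0.72 and 0.28 and did not pass (adjusted p = 0.41, 0.188 and 0.661). Several collagen hydroxylases and Lox are known hypoxia targets, so a list of hypoxia response genes was read beside them. Of 14 tested, 1 was lower (Vegfa, −3.00 ± 0.32, adjusted p = 0.000919), 0 were higher and 13 did not pass, with a median of −0.04. When each array was centred on its median, 2 were higher, 1 was lower and the median was 0.25. The next smallest p values belonged to Pdk1 (1.30 ± 0.45, adjusted p = 0.0914), Higd1a (−1.01 ± 0.42, adjusted p = 0.151) and Ero1a (0.61 ± 0.33, adjusted p = 0.254).

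Markers of other cells moved with the members, and their part in these differences was not tested. Fibroblast markers fell in the DsRed-positive arrays by a median of 5.66 on the log2 scale (10 of 10 lower). Those with the smallest p were Dcn (−6.67 ± 0.34), Fbln1 (−6.30 ± 0.37), Col1a1 (−5.89 ± 0.37) and Dpt (−5.42 ± 0.44). Among these markers, Col1a1 and Col3a1 also belong to the collagen chain list and Mfap5 to the elastic fibre list. Thy1 was at or below the control level in all 3 positive arrays. Of 9 tested smooth muscle and mural markers, 6 were lower, with the smallest p for Acta2 (−5.61 ± 0.32), Pdgfrb (−6.63 ± 0.43), Tagln (−5.21 ± 0.46) and Actg2 (−6.49 ± 0.62). The 10 measured markers summed to 44200 to 54170 in positive and 135300 to 227000 in negative arrays. Most of the positive sums was Rgs5 alone (45141.91, 41325.18 and 50648.21). Rgs5 went against the lower markers, with 1.56 ± 0.43 (adjusted p = 0.0439), and lost that call whichever array was left out. It also did not pass without both arrays numbered 1 (adjusted p = 0.168, limma). The fit without both arrays numbered 1 tested 10 markers of this list, of which 7 were lower and 0 were higher. Cnn1 was at or below the control level in all 3 positive arrays.

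Endothelial markers summed to 1282 to 1779 in positive and 9383 to 14410 in negative arrays, with 4 of 6 lower, Cldn5 (−3.06 ± 0.35), Tek (−3.85 ± 0.55), Cdh5 (−2.87 ± 0.42) and Emcn (−1.91 ± 0.39). Emcn did not pass without both arrays numbered 1 (adjusted p = 0.129), which left 3, and Tie1 was at or below the control level in the positive arrays. Leukocyte markers summed to 2477 to 4422 and 33560 to 46550, with 7 of 8 lower, and the smallest p for Laptm5 (−5.94 ± 0.41), H2-Aa (−5.15 ± 0.47), Ptprc (−5.09 ± 0.57) and Cd52 (−3.55 ± 0.41). When both arrays numbered 1 were left out, 5 were lower, and Csf1r and Adgre1 did not pass (adjusted p = 0.113 and 0.225). Mast cell markers summed to 401.1 to 583.8 and 19660 to 28680, with 2 of 4 lower, Cpa3 (at least 98.9-fold, adjusted p = 7.43e-05) and Cma1 (−5.23 ± 0.45). Kit had −0.75 ± 0.52 and Tpsb2 0.22 ± 0.69, and neither passed (adjusted p = 0.369 and 0.863). Cpa3 and Fcer1a were at or below the control level in all 3 positive arrays. The summed lysyl oxidase signal was 521.6 to 704.3 in positive and 73900 to 93710 in negative arrays, that of the lysyl hydroxylases 34.66 to 140.3 and 1816 to 4063, and that of the prolyl 4-hydroxylase alpha subunits 478.2 to 1458 and 9987 to 16010. The groups did not overlap in any of these sums, which repeat the separation of the single genes. Such a separation, with all 3 positive arrays below all 3 negative arrays, was found in 21.4% of all tested genes. In the negative arrays the lysyl oxidase sum was mostly Lox.

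**Figure D5:**
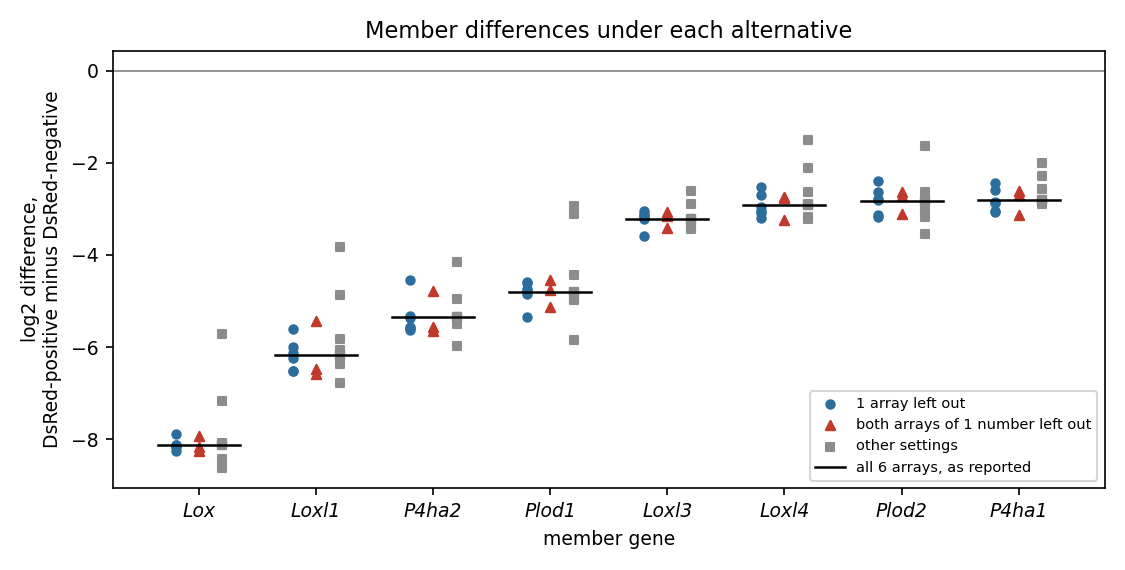
Log2 difference (DsRed-positive minus DsRed-negative) of the 8 tested member genes as reported (black line) and under each of 20 alternatives, with 1 array left out (blue circles), both arrays of 1 number left out (red triangles) or other settings (grey squares). All values stay below 0, and Lox runs from −8.63 to −5.71.

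The direction of the 8 genes held in all 20 alternatives for each gene. The lower call held in all 20 for 6 of them and in 19 for P4ha1 and Plod2. Another choice of probe set or offset moved some values more than the arrays did. With the mean of all single-gene probe sets, Loxl1 had −3.82, Loxl4 −1.51 and Plod1 −2.94, and with a larger offset, at the 50th percentile of all values, Plod1 had −3.12 and Plod2 −1.63. The balance of calls over all probe sets depended on scaling, with 2605 higher and 2600 lower after quantile normalization, 4871 and 2313 after median centring, and 2253 and 3549 on the values as deposited.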

How the data were processed

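RNA was amplified in 2 rounds and hybridized to Affymetrix Mouse Genome arrays, 1 per sample, per the labels' protocols. The deposited values are linear probe set intensity, made with GCOS, per the submitters' processing notes (version and settings not given in the sources used here). Their 2% trimmed mean was 1500.01 on all 6 arrays, so the authors' values had been scaled to a common level. An offset of 39.84 (20th percentile) was added, log2 taken and, since array medians spanned 0.74 (limit 0.2), quantile normalization applied. This removed a shift of −0.54 between the groups' medians, and it and the offset compress folds of dim probe sets. After 64 of 45101 probe sets (controls) were removed, the 30175 whose mean exceeded the 33rd percentile (7.18) went into limma 3.58.1 in R 4.3.3 (lmFit, eBayes, two-sided), with Benjamini-Hochberg adjustment over all of them and a threshold of 0.05. Intensities of different probe sets are not comparable as levels, and the number of arrays, 3 per group, limits the precision.

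Symbols came from the platform annotation, updated through gene IDs (34945 probe sets with 1 gene, 34741 of them matched and 204 kept as given, 932 with several, 9160 with none here). The brightest single-gene probe set stood for a gene. The control level of each array was the 95th percentile of its 27 unspiked control probe sets (log2 7.41 to 8.03). Where no array of a group exceeded it, that level took the group's place in the fold, written as at least N-fold. Hybridization spikes (9 probe sets) averaged log2 12.80 to 14.26 in DsRed-positive and 14.28 to 16.30 in DsRed-negative arrays, on the values as deposited. They were thus higher in the DsRed-negative arrays without overlap, the same direction as the member genes. The part of this technical difference in the member differences was not tested.

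Named were all members, all genes of the intracellular modification list, the 4 smallest p of each other list, genes chosen after their values were seen because they went against a list, lost a call, stood at the control level or bear on the members or the reported allele, and the 3 genes nearest to each called member. The members and lists were chosen with earlier results of these data known. Fkbp10, Adamts2, Adamts14, Fbn1, Efemp2, Pycr1 and Bnip3l of those lists were not analysed here, having no single-gene probe set. The steps were tested on simulated data. Alternatives were other scalings, offsets, filters, probe set rules, weights, trend and robust estimation, the replicate number as a block and left-out arrays. Same-numbered arrays correlated by 0.145, 0.037 and 0.053 in their deviations from the group means, not all above 0.1, so the number was not taken as a pairing. Both arrays numbered 1 did share the high Xist signal, and each array correlated best with its own number.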

Additional observations from a re-analysis of the deposited data

How the results depend on the processing

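The 8 member genes stayed lower in every alternative run, except that P4ha1 did not pass without both arrays numbered 1 (−2.61) and Plod2 without both numbered 5 (−2.64), which left 7 genes each time. Among member probe sets, 8 to 11 were lower and 0 were higher. Over all tested probe sets, 2605 were higher and 2600 lower, and median centring gave 4871 higher. Leaving out both arrays numbered 1 gave 926 higher and 1253 lower, both numbered 2 gave 1343 higher, and both numbered 5 gave 991 higher and 1434 lower, with fewer samples in each of these fits. Leaving out 1 array at a time gave 1102 to 2586 higher and 1751 to 2354 lower. The median of all probe sets was 0.09, and it was −0.19 on the values as deposited and 0.35 after median centring.

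With the number as a replicate block, 2123 probe sets were higher and 2281 lower, 10 member probe sets and 8 member genes were lower, and no other member call changed. Leaving out 1 array kept Lox within −8.27 to −7.89, Loxl1 within −6.52 to −5.60, Loxl3 within −3.59 to −3.05, Loxl4 within −3.20 to −2.52, Plod1 within −5.35 to −4.60, Plod2 within −3.18 to −2.39, P4ha1 within −3.07 to −2.44 and P4ha2 within −5.63 to −4.55. Fits of the other lists without arrays or with other scalings were added after the data were seen. Signal near the control level limits Lox, Loxl1, Loxl4, Plod1, Plod2 and P4ha2, whose folds depend on values close to background.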
